A study of Mus musculus with 20 samples.

Results

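Rps6ka2, Map2k6, Lrp8, Abhd15 and Ankrd63 are the 5 genes, of 24421 listed and 12465 tested, called for a response to a BET inhibitor that depended on the stimulus given with it in dendritic cells grown from mouse bone marrow (BMDCs). They were chosen by the interaction itself, which is the effect of the inhibitor with immune complex minus its effect with ovalbumin on the log2 scale, at an adjusted p under 0.05 in the quasi-likelihood test of edgeR. Those 5 calls make up 0.0401% of the tested genes. The interaction and the 4 simple effects of these genes are given below as a description, with no test beyond the one that chose them. The count of 5 belongs to the fit without the mouse as a term. With the mouse as a replicate block 102 genes passed, with DESeq2 24 and with DESeq2 and the block 185. The 5 members were among them each time, but these fits reuse the libraries that chose the members and give no independent support. In the fit without the block, leaving out any 1 mouse left only 0 or 1 of the 5 members called. Rps6ka2 and Lrp8 were higher with the inhibitor iBET than with its solvent DMSO after ovalbumin, and close to the high DMSO level after immune complex. Ankrd63 was lower with iBET after ovalbumin and level with DMSO after immune complex. Map2k6 was higher with iBET after immune complex, and Abhd15 was higher with iBET after both stimuli, more so after immune complex. Averaged over both stimuli, all 5 genes passed the test for iBET, Map2k6 only under some of the alternatives tried. Most genes did so, with 33.5% of all tested genes higher and 34.9% lower. Averaged over both treatments, all 5 passed it for immune complex, where 15.2% of tested genes were higher and 16.8% lower.

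BET proteins are chromatin readers that bind acetylated histones and help recruit the machinery for transcription, and I-BET151 (iBET) blocks that binding. IgG immune complexes cross-link Fcγ receptors on dendritic cells, and the signal runs through Src family kinases and Syk to calcium, NF-κB and the MAP kinase cascades. Of the genes described here, Rps6ka2 encodes RSK3, a ribosomal S6 kinase that acts downstream of ERK. Map2k6 encodes MKK6, the kinase that phosphorylates and activates p38. Lrp8 encodes ApoER2, a receptor of the LDL receptor family that binds reelin and apolipoprotein E. Abhd15 encodes an α/β hydrolase domain protein known from adipocytes, where it binds the phosphodiesterase PDE3B and takes part in the control of lipolysis. Ankrd63 encodes a protein with ankyrin repeats.

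Bone marrow of 5 wild-type C57BL/6 mice (A to E), whose age is not given in the sources used here for this experiment, was grown in GM-CSF at 40 ng/mL for 8 days, and the cells of every mouse were split into 4 groups, giving 20 libraries. The DMSO Ova and DMSO IC groups received 5% DMSO with ovalbumin or with ovalbumin opsonized by rabbit IgG, and the iBET Ova and iBET IC groups received 3.3 µM I-BET151 with the same stimuli, for 4 h. The labels describe treatment and stimulus as given together, whereas the methods place iBET shortly before the stimulus. The methods dilute iBET from a stock in DMSO, but the final DMSO content of the iBET groups is not stated. If it was not 5%, effects of iBET and of the solvent cannot be told apart in any comparison of iBET against DMSO, the interaction included. Such cultures are mixtures of dendritic and macrophage-like cells, and the labels speak of sorting where the methods describe lysis in the dish.

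Library totals ran from 16447491 to 29245150 counts. All 8 dendritic cell markers were detected in every group, at a summed level of 4479 to 9038 CPM (counts scaled to the library total), with group medians of 6036 and 6801 in DMSO Ova and DMSO IC and of 6312 and 7177 in iBET Ova and iBET IC. With iBET, averaged over stimuli, 3 of the 8 fell on the log2 scale, Ciita fell by 5.25, Flt3 fell by 3.28 and Irf4 fell by 0.77 (adjusted p = 2.79e-10, 1.44e-07 and 5.55e-05). Itgax (0.13), Cd74 (0.24), H2-Ab1 (-0.03), Zbtb46 (-0.29) and Ccr7 (-0.45) did not pass. The 8 macrophage and monocyte markers summed to 1774 to 2409 CPM in DMSO Ova against 1312 to 1731 in iBET Ova, with no overlap. After immune complex they summed to 1863 to 2562 CPM in DMSO IC against 1403 to 2013 in iBET IC. Averaged over stimuli, Csf1r (log2 -0.75), Cd14 (-0.69) and C1qa (-0.53) fell with iBET (edgeR adjusted p = 7.66e-07, 0.00109 and 0.0254). Adgre1 (-0.09), Mertk (-0.14), Cd68 (-0.20), Mrc1 (-0.18) and Ly6c2 (0.08) did not pass. The 6 mast cell and basophil markers summed to 7.83 to 16.2 CPM in DMSO Ova and 5.48 to 9.21 in iBET Ova. With immune complex they summed to 11.1 to 19.1 in DMSO IC and 7.33 to 13.2 in iBET IC. Of them Gata2 fell with iBET by 1.04 (log2, edgeR adjusted p = 0.000282). Cpa3 (-0.19) and Hdc (-0.29) did not pass, and Fcer1a, Mcpt8 and Ms4a2 were too low to test. In these bulk libraries, fewer cells of a type and less RNA per cell cannot be told apart, and the part of these marker shifts in the iBET effects below was not tested. Markers of T and NK cells and of B cells summed to at most 0.801 CPM in any library, and the neutrophil list to at most 49.9 CPM. The stromal list summed to 0.42 to 0.795 CPM in DMSO IC and to at most 0.114 CPM elsewhere. Of its genes only Pdgfra reached such a level (up to 0.795 CPM). Col1a1, Col1a2 and Dcn stayed at or below 0.108 CPM in every library, so the shift is not one of the whole list. This shift goes with immune complex in the DMSO groups, and its part in the results was not tested.

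Rps6ka2 (ENSMUSG00000023809, GRCm38 chr17:7170115-7303315, plus strand, 25 exon blocks) was the most abundant of the 5 genes in CPM. Its level in mice A to E, in CPM after TMM scaling, was 47.4, 34.1, 40.4, 37.3 and 36.9 in DMSO Ova and 60.3, 58.5, 65.6, 67.0 and 64.4 in iBET Ova. After immune complex it was 152, 119, 149, 124 and 142 CPM in DMSO IC and 110, 105, 140, 113 and 127 CPM in iBET IC. The 2 ovalbumin groups did not overlap, both IC groups lay above both Ova groups, and the IC groups overlapped each other. The order of the means was therefore DMSO IC (137 ± 15.1 CPM, SD, n = 5), iBET IC (119 ± 14.5), iBET Ova (63.2 ± 3.61) and DMSO Ova (39.3 ± 5.09), with only the first pair not separated by its spread. With ovalbumin, iBET against DMSO was 1.61-fold (log2 0.68 ± 0.10, SE), higher in 5 of 5 mice. With immune complex the log2 difference was -0.20 ± 0.09, lower in 5 of 5 mice but by at most 0.47. Immune complex against ovalbumin was 3.49-fold with DMSO (log2 1.80 ± 0.10) and 1.89-fold with iBET (log2 0.92 ± 0.10), so the gap between stimuli was narrower under iBET. The interaction was -0.89 ± 0.13 and ranged only from -0.97 to -0.79 among mice.

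Lrp8 (ENSMUSG00000028613, GRCm38 chr4:107802261-107876840, plus strand, 24 exon blocks) followed the same order at a lower level. In mice A to E it stood at 8.72, 5.63, 6.50, 5.11 and 5.33 CPM in DMSO Ova and at 14.4, 14.9, 12.9, 10.7 and 11.5 CPM in iBET Ova. With immune complex the values were 23.5, 17.2, 26.6, 18.0 and 20.1 CPM in DMSO IC and 16.9, 17.6, 22.9, 15.0 and 17.9 CPM in iBET IC. The groups separated as for Rps6ka2, with the IC groups above both Ova groups and overlapping each other. The means were 21.1 ± 3.90 CPM in DMSO IC, 18.0 ± 2.93 in iBET IC, 12.9 ± 1.80 in iBET Ova and 6.26 ± 1.47 in DMSO Ova (SD, n = 5). iBET against DMSO was 2.05-fold with ovalbumin (log2 1.03 ± 0.16, SE, higher in 5 of 5 mice) and -0.23 ± 0.15 on the log2 scale with immune complex, lower in 4 of 5 mice. Immune complex against ovalbumin was 3.36-fold with DMSO and 1.40-fold with iBET. The interaction, -1.26 ± 0.22, lay between -1.36 and -1.19 in the 5 mice, the narrowest spread of the 5 genes. GENCODE places the antisense genes Lrp8os1 and Lrp8os2 inside introns of Lrp8, sharing 0 exon bases with it, and neither is in the count table.

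Ankrd63 (ENSMUSG00000078137, GRCm38 chr2:118699103-118703963, minus strand) is a gene of 1 exon, so spliced reads cannot mark its transcript. Its levels in mice A to E were 20.5, 18.9, 23.2, 23.2 and 20.7 CPM in DMSO Ova and 9.78, 9.54, 9.04, 14.3 and 10.4 CPM in iBET Ova. In DMSO IC they were 33.1, 29.6, 31.2, 35.0 and 36.8 CPM, and in iBET IC 34.2, 26.2, 32.7, 40.4 and 32.1 CPM. Again the 2 ovalbumin groups did not overlap, but here the iBET group was the lower one, and with immune complex both treatments reached the same level. The means were 33.1 ± 2.88 CPM in DMSO IC and 33.1 ± 5.10 in iBET IC, against 21.3 ± 1.87 in DMSO Ova and 10.6 ± 2.11 in iBET Ova (SD, n = 5). iBET lay 2.01-fold below DMSO with ovalbumin (SE 0.12 on the log2 scale, lower in 5 of 5 mice). With immune complex its log2 effect was close to 0 (SE 0.12), with 3 mice higher and 2 lower. Immune complex against ovalbumin was 1.56-fold with DMSO and 3.12-fold with iBET, the one member whose response to immune complex was larger in size under iBET. The interaction was 1.00 ± 0.17 and ran from 0.80 to 1.42 among mice.

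Abhd15 (ENSMUSG00000000686, GRCm38 chr11:77515121-77538607, plus strand, 3 exon blocks) had by far the largest response to iBET of the 5 genes. In mice A to E its level was 8.95, 8.36, 7.30, 7.21 and 6.62 CPM in DMSO Ova and 56.6, 46.6, 43.6, 44.6 and 44.3 CPM in iBET Ova. With immune complex it was 2.65, 3.13, 2.10, 2.79 and 3.37 CPM in DMSO IC and 38.7, 38.6, 32.4, 32.0 and 29.8 CPM in iBET IC. No pair of groups overlapped, and the order was iBET Ova (47.1 ± 5.42 CPM, SD, n = 5), iBET IC (34.3 ± 4.09), DMSO Ova (7.69 ± 0.943) and DMSO IC (2.81 ± 0.486). iBET against DMSO was 6.13-fold with ovalbumin (log2 2.62 ± 0.12, SE) and 12.2-fold with immune complex (log2 3.60 ± 0.13), higher in 5 of 5 mice both times. Immune complex lay 2.73-fold below ovalbumin with DMSO and 1.37-fold below it with iBET. The interaction was 0.99 ± 0.17, from 0.38 in mouse E to 1.33 in mouse C.

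Reads of Abhd15 share genome with other genes. Its exons overlap those of Trp53i13 on the opposite strand over 328 of 3035 bases (10.8%), those of Taok1 over 94 bases (3.1%) and those of Gm10392 over 883 bases (29.1%), and the last is not in the count table. Whether the counting used strand is not given in the sources used here, so reads in these stretches cannot be assigned for certain. Trp53i13, whose levels were 6.65 and 4.59 CPM with DMSO (Ova and IC) and 10.6 and 8.80 CPM with iBET, moved the same way as Abhd15 by less. Averaged over stimuli, Trp53i13 rose with iBET by 0.81 on the log2 scale (edgeR adjusted p = 2.17e-07). The kinase gene Taok1 stood at 214 to 227 CPM in every group, with a log2 iBET effect of -0.04 (adjusted p = 0.594).

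Map2k6 (ENSMUSG00000020623, GRCm38 chr11:110399122-110525522, plus strand, 15 exon blocks) was the scarcest of the 5, with 11 to 84 counts per library, so each of its values carries more counting error than those above. Its levels in mice A to E were 2.08, 3.38, 2.40, 2.94 and 2.26 CPM in DMSO Ova and 2.22, 1.68, 2.04, 2.21 and 1.72 CPM in iBET Ova. In DMSO IC they were 0.742, 0.499, 0.793, 0.583 and 0.568 CPM, from 11 to 17 counts each, and in iBET IC 1.11, 1.29, 1.24, 1.29 and 1.50 CPM. The ovalbumin groups overlapped and lay above both IC groups, and iBET IC lay wholly above DMSO IC. The order of means was DMSO Ova (2.61 ± 0.537 CPM, SD, n = 5), iBET Ova (1.97 ± 0.261), iBET IC (1.29 ± 0.141) and DMSO IC (0.637 ± 0.125), with only the first pair not separated. With immune complex, iBET was 2.01-fold above DMSO (log2 1.01 ± 0.18, SE, higher in 5 of 5 mice), while with ovalbumin its log2 effect was -0.40 ± 0.16, lower in 4 of 5 mice. Immune complex lay 4.08-fold below ovalbumin with DMSO and 1.54-fold below it with iBET. The interaction, 1.41 ± 0.24, was the least even of the 5, from 0.43 in mouse A to 2.19 in mouse B.

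**Figure D1:**
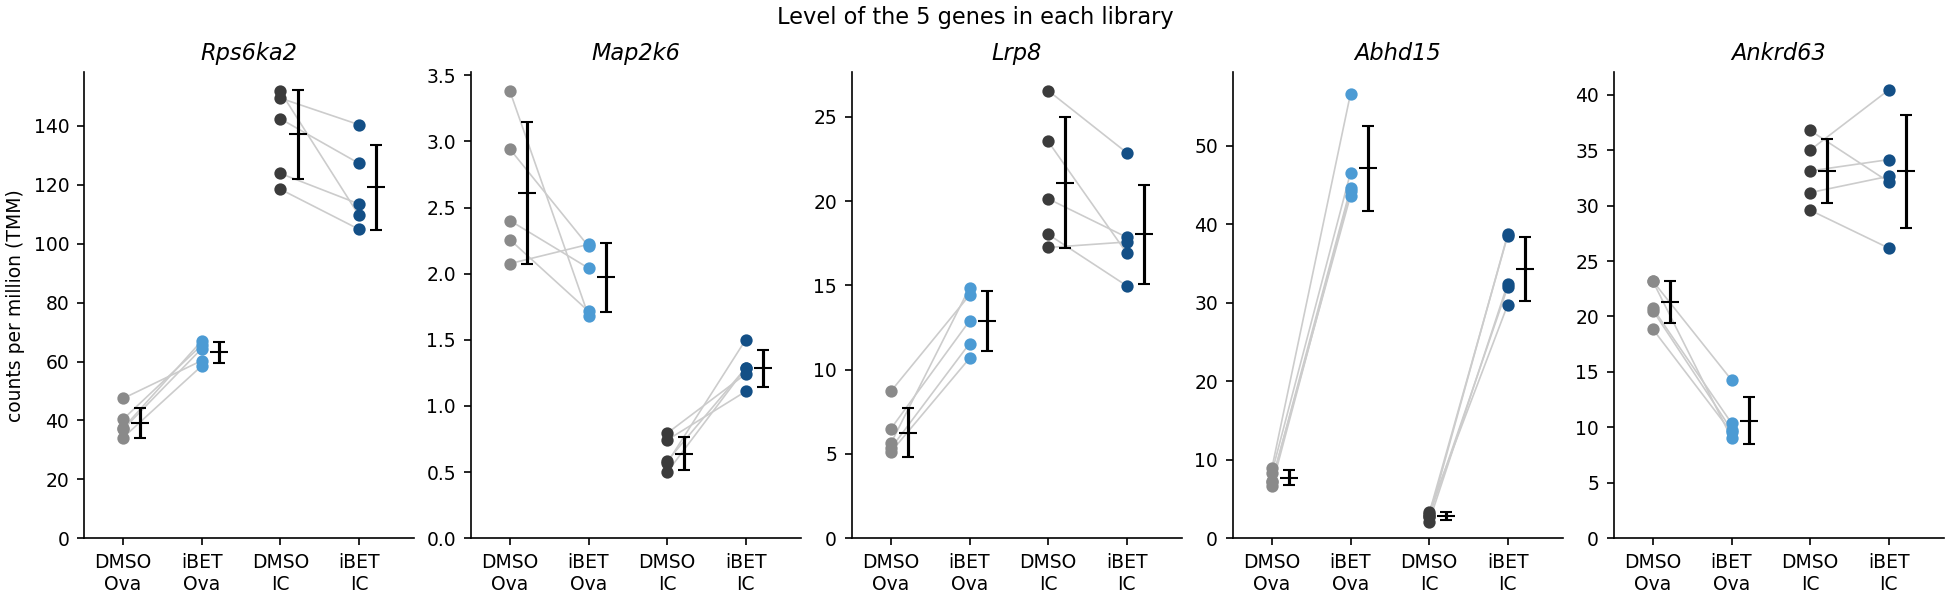
Level of each gene in CPM after TMM scaling (vertical axes from 0, 1 scale per gene) in the 4 groups, with 1 point per library, grey lines joining the DMSO and iBET libraries of a mouse, and bars for mean ± SD of 5 mice. Rps6ka2 and Lrp8 differ between treatments with Ova and overlap with IC, Ankrd63 does so in the opposite direction, Map2k6 overlaps with Ova and separates with IC, and Abhd15 is higher with iBET after both stimuli.

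**Figure D2:**
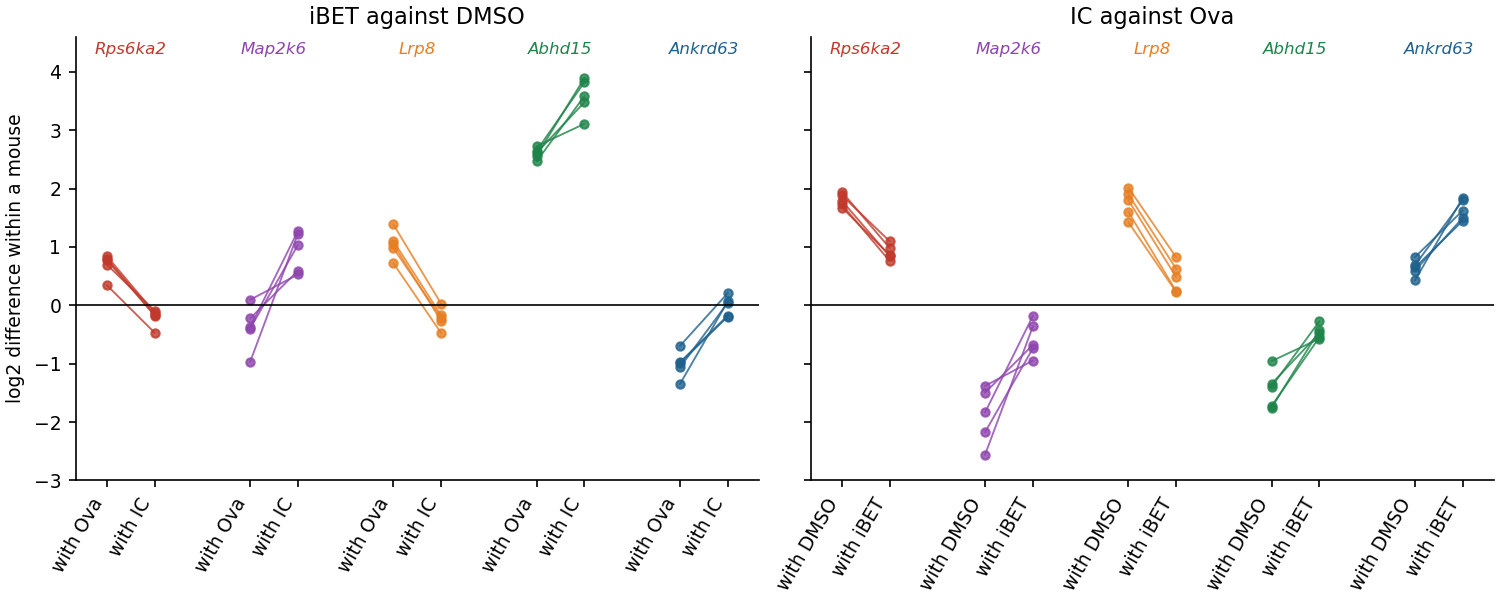
Log2 difference within each mouse for iBET against DMSO (left) and IC against Ova (right), with 1 line per mouse joining the value with Ova to that with IC, or with DMSO to that with iBET. The lines of each gene run the same way in 5 of 5 mice, which is the sign of the interaction that chose these genes, and are nearly parallel for Lrp8 and spread widest for Map2k6.

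The interaction's adjusted p of the 5 genes ran from 0.0289 for Rps6ka2 to 0.0316 for Lrp8, the last gene inside the limit. These p values chose the members and are not support for them. Slc40a1, the iron exporter ferroportin, stood just outside with 0.0894 and an interaction of -1.43, and Klf10, Bcl11a, St6galnac4 and Ptpre followed at 0.126 to 0.184. Of these, Slc40a1 and Klf10, a Krüppel-like transcription factor, were lower with iBET mainly after immune complex (log2 -1.81 and -1.09 against -0.38 and -0.06 after ovalbumin), and Bcl11a, a zinc finger transcription factor, was higher with iBET mainly after immune complex (2.21 against 0.53). Of the 12465 tested genes, 543 had an unadjusted p under 0.05 for the interaction. By chance alone a share of about 0.05 of genes would pass such a limit, so nothing is read from this count. In the fit without the block, leaving out 1 mouse left 0 to 2 genes past the limit, with 0 of the 5 members called without mouse B, C or E, Rps6ka2 alone of them without A and Ankrd63 alone without D. The interaction of every member kept its sign without each mouse, and its size stayed between 0.87 and 0.92 for Rps6ka2 and between 1.17 and 1.63 for Map2k6. Each member's interaction had the same sign in all 5 mice, so leaving out 1 mouse could hardly turn it. The replicate block with 1 mouse left out, an alternative added after seeing the data, left 14 to 61 genes past the limit. All 5 members were called without mouse A, and all but Map2k6 without B, C, D or E. All these fits reuse libraries that chose the members, so their calls and values give no independent support.

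**Figure D3:**
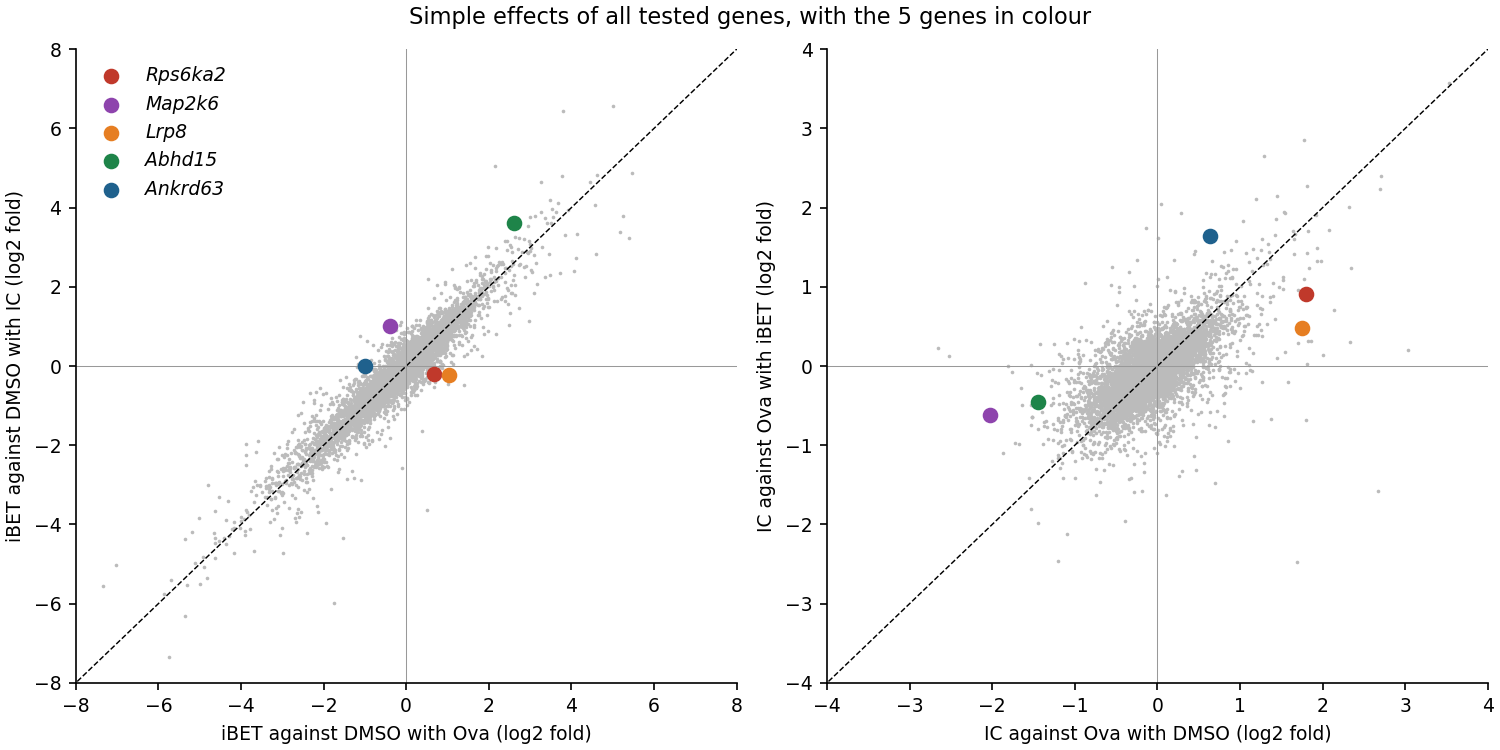
Log2 fold of iBET against DMSO with Ova (horizontal) and with IC (vertical) on the left, and of IC against Ova with DMSO (horizontal) and with iBET (vertical) on the right, for the 12465 tested genes in grey and the 5 genes in colour, with a dashed line of equal effects. The coloured points lie off the dashed line as their choice requires, with Abhd15 far out along the left axes (2.62 and 3.60) and Ankrd63 alone of the 5 farther from 0 under iBET on the right (0.64 and 1.64).

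The averages over the other factor were tested. As contrasts of the 4 groups they are orthogonal to the interaction, which makes the estimates uncorrelated only where the groups have equal variance. The SE was not equal for Map2k6, at 0.16 for iBET with ovalbumin and 0.18 with immune complex. The averages also come from the same libraries and share the residual spread of each gene with the test that chose the members. Their p values are therefore not wholly independent of the choice. Averaged over both stimuli, iBET raised 4 of the 5 genes and lowered 1, where 33.5% of all tested genes were higher and 34.9% lower, so that a call in itself does not set these genes apart. Abhd15 had the largest change of the 5 and rose 8.63-fold (log2 3.11 ± 0.09, SE, edgeR adjusted p = 1.43e-16, higher in 5 of 5 mice). Ankrd63 fell by 0.50 on the log2 scale (SE 0.08, adjusted p = 2.36e-05), lower in 5 of 5 mice. Rps6ka2 rose by 0.24 (SE 0.07, adjusted p = 0.00364), Lrp8 by 0.40 (SE 0.11, adjusted p = 0.00269) and Map2k6 by 0.31 (SE 0.12, adjusted p = 0.0298), none of them by more than 1.32-fold. These averages join unequal simple effects, and for Rps6ka2, Lrp8 and Map2k6 the simple effects differed in sign. The call for Map2k6 was lost without mouse A (adjusted p = 0.0592), D (0.0935) or E (0.115), with DESeq2 (0.0617), with DESeq2 and the block (0.056), with library size only (0.0645), with surrogate variables (0.0944) and with mice A and B alone (0.398). The call for Rps6ka2 was lost with mice A and B alone (log2 0.11, adjusted p = 0.437), mouse A being the 1 mouse of 5 with a value below 0.

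Immune complex averaged over both treatments raised 3 of the 5 genes and lowered 2, where 15.2% of tested genes were higher and 16.8% lower. Rps6ka2 rose 2.57-fold (log2 1.36 ± 0.07, SE, edgeR adjusted p = 5.32e-11). Ankrd63 rose 2.20-fold (log2 1.14 ± 0.08, adjusted p = 8.82e-09) and Lrp8 2.17-fold (log2 1.12 ± 0.11, adjusted p = 4.19e-07). Abhd15 fell by 0.95 on the log2 scale (SE 0.08, adjusted p = 8.25e-08) and Map2k6 by 1.33 (SE 0.12, adjusted p = 1.51e-07). Each direction held in 5 of 5 mice. The 5 calls for the averaged immune complex effect held under all 15 alternatives tried.

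For the simple effects, the shares of all tested genes past the limit were 27.7% higher and 28.9% lower for iBET against DMSO with ovalbumin, and 27.1% higher and 29% lower with immune complex. For immune complex against ovalbumin they were 9.59% higher and 10.7% lower with DMSO, and 5.19% higher and 6.63% lower with iBET. The choice of members used these same libraries, so nothing is read from their place among those shares.

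Expressed per kilobase of exon, which allows levels of different genes to be compared, Abhd15 changed its place among the members with treatment. In DMSO IC the mean levels were 13.8 CPM per kb for Rps6ka2, 6.82 for Ankrd63, 2.01 for Lrp8, 0.925 for Abhd15 and 0.185 for Map2k6. In DMSO Ova they were 4.38 for Ankrd63, 3.93 for Rps6ka2, 2.53 for Abhd15, 0.758 for Map2k6 and 0.595 for Lrp8. In iBET Ova they were 15.5 CPM per kb for Abhd15, 6.33 for Rps6ka2, 2.18 for Ankrd63, 1.22 for Lrp8 and 0.573 for Map2k6. So with ovalbumin Abhd15 was below Ankrd63 and Rps6ka2 with DMSO and above every other member with iBET. With immune complex it was above only Map2k6 with DMSO, and with iBET its 11.3 ± 1.35 CPM per kb (SD) overlapped the 11.9 ± 1.46 of Rps6ka2, above the 6.81 of Ankrd63, 1.72 of Lrp8 and 0.373 of Map2k6. Exon length here is the union of the annotated exons, so a transcript that uses fewer of them would have a higher level than stated.

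The promoters are shown for the 2 genes with a searched motif in the window before their first annotated start. RefSeq (GRCm38.p6) gave 9 windows of 250 bases before to 50 after a start for the 5 genes. Both strands were searched for TGANTCA (AP-1), TGACGTCA (CRE), CACGTG (E-box), GGANTTTCC (NF-κB), GAGGAAGT (ETS family, PU.1) and TATAAA, the core promoter box. N stands for any base, so TGANTCA is looser than the AP-1 site. Of 32851 windows of that length, 7.81%, 1.79%, 7.15%, 1.25%, 3.2% and 13.6% hold these letters, in that order. Ankrd63 (chr2:118703964-118704213, minus strand) has TATAAA 33 bases before its start. The earlier start of Map2k6 (chr11:110398852-110399101, plus strand) has TGATTCA 232 bases before it. That is a match to TGANTCA with T at N and is not read as an AP-1 site. Both matches are in capitals below, 5′ to 3′ on the strand of the gene.
Ankrd63: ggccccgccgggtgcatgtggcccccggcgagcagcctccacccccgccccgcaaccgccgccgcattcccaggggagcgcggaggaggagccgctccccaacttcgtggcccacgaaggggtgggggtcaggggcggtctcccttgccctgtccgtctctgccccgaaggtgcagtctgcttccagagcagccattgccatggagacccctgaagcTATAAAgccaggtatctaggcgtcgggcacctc
Map2k6: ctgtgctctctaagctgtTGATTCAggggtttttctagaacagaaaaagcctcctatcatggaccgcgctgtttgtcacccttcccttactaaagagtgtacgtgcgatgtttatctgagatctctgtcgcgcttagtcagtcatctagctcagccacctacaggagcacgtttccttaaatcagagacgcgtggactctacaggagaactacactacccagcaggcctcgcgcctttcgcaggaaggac
A later start of Map2k6 has TATAAA on the other strand 206 bases before it, and the windows of Rps6ka2, Lrp8 and Abhd15 hold none of the 6 motifs. The first windows of Rps6ka2, Lrp8, Ankrd63 and Abhd15 have 21 to 29 CG dinucleotides in 300 bases and that of Map2k6 has 14, where the median of all windows is 7. A match describes letters in a window and does not show binding, and the first RefSeq start of Lrp8 lies 624 bases from the GENCODE start of the gene.

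Across the 20 libraries Rps6ka2 and Lrp8 tracked each other most closely of the members (Pearson r = 0.94 of log2 CPM), and Rps6ka2 ran opposite to Map2k6 (r = -0.87). These values share the libraries and the groups, and describe likeness only. The genes most like Rps6ka2 were Arl8a, a small GTPase of lysosomes, Ralgds, an exchange factor for Ral, and St6galnac4, a sialyltransferase. Those most like Lrp8 were Rps6ka2 itself, Fem1b and Acsl1, an acyl-CoA synthetase whose level was 66.2 CPM in DMSO Ova, 153 in DMSO IC, 91.1 in iBET Ova and 119 in iBET IC. Acsl1 thus had the same order of groups as Lrp8, and its interaction was -0.82 (adjusted p = 0.209). Ankrd63 was most like Pcmt1, the phosphatase gene Ptpre and the integrin gene Itgb3, and Ptpre, lower with iBET after ovalbumin (log2 -0.54, adjusted p = 5.23e-06) and at -0.04 after immune complex (adjusted p = 0.687), had an interaction of 0.50 (adjusted p = 0.184). Abhd15 was most like Smyd3, Tbl2 and Magi3, and Magi3 rose with iBET by 2.09 after ovalbumin and 2.56 after immune complex (adjusted p = 4.49e-13 and 4.24e-14). Map2k6 was most like Klf11, Tbc1d9b and Tmem53.

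Genes that share a family or a pathway with the 5 were taken from 6 lists, whose 120 other tested genes are counted once. In edgeR 0 of the 120 passed the interaction, where 0.0401% of all tested genes did, so 0 calls say little about these lists. An unadjusted p under 0.05 was found for 6, a limit that a share of about 0.05 would pass by chance. The interactions of the 120 ran from -0.84 to 0.80. DESeq2 also called 0, the replicate block called 2 (Ankrd33b and Rps6kb1), and DESeq2 with the block called those and Mgll.

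Among the other S6 kinases, 7 of 9 were tested, and with immune complex 2 were higher and 4 lower with iBET (median log2 -0.37, all tested genes -0.01). Of all tested genes, 27.1% were higher and 29% lower in that comparison, and no list was tested as a set. Rps6ka5 (MSK1, a kinase of histone H3) rose by 0.69 (adjusted p = 4.03e-05) and Rps6kb2 by 0.36 (adjusted p = 0.00229). Rps6ka1, the RSK1 gene, fell by 0.46 (adjusted p = 1.02e-05) and Rps6kc1 fell by 0.67 (adjusted p = 1.37e-06). Immune complex with DMSO raised 1 of the 7, Rps6kb1 (log2 0.49, adjusted p = 0.00215), which encodes the S6 kinase of the mTOR pathway, and lowered Rps6ka1 and Rps6ka5, beside 1.80 for Rps6ka2. For that effect 9.59% of all tested genes were higher and 10.7% lower. Of the upstream ERK cascade, 15 of 15 genes were tested, and with immune complex iBET raised 5 and lowered 7 (median log2 -0.17). Map2k1, the MEK1 gene, rose by 0.53 and the Ras exchange factor gene Sos1 by 0.51, while Nras fell by 0.90 and Braf by 0.85 (adjusted p from 8.68e-09 to 0.000592). The effects of iBET on these 4 genes with ovalbumin were 0.60, 0.54, -0.83 and -0.81, with interactions of -0.07, -0.02, -0.07 and -0.04.

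Of the p38 and JNK cascade around Map2k6, 28 other genes were tested, and iBET raised 14 and lowered 5 with immune complex (median log2 0.17), against 13 and 5 with ovalbumin. Of all tested genes, 27.1% were higher and 29% lower with immune complex, and 27.7% and 28.9% with ovalbumin. Map2k3, which encodes the other p38 activator MKK3, rose with iBET by 0.74 after each stimulus (adjusted p = 8.48e-06 with ovalbumin and 8.63e-06 with immune complex), and its interaction was -0.003. Map2k3 was singled out after its values were seen, as the closest relative of Map2k6. Gadd45a, a stress-induced activator of MAP3K4, rose by 1.44 and Mapk8 (JNK1) by 0.89, and Mapkapk3, a kinase that p38 phosphorylates, fell by 0.86 and Tab1 by 0.77 (all with immune complex, adjusted p from 8.3e-09 to 7.9e-07).

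Of the LDL receptor family and its partners, 19 of 26 others were tested, and Reln and Dab1, the ligand and the adaptor of the reelin pathway, were among the 7 genes too low to test. iBET with immune complex raised 7 and lowered 5 (median log2 0.17). Here and for the lists that follow, the shares of all tested genes were 27.1% higher and 29% lower. Ldlrad3 rose by 1.50 and Lrp11 by 1.01, and Ldlrad4 fell by 0.99 and Lrp12 by 0.42 (adjusted p from 5.57e-09 to 0.0186). Lrp12 rose with immune complex by 0.80 with DMSO and 0.82 with iBET (adjusted p = 0.000697 and 0.000981), beside 1.75 and 0.49 for Lrp8. Of the ABHD family and lipolysis genes, 23 of 24 others were tested, and iBET with immune complex raised 12 and lowered 3 (median log2 0.25). Abhd6, a monoacylglycerol hydrolase, rose by 2.11 and Abhd3 by 1.55, and the lipolysis inhibitor G0s2 fell by 1.62 and the lipid droplet coat gene Plin2 by 1.30 (adjusted p from 1.27e-07 to 8.19e-05). No other gene of that list reached the 3.60 of Abhd15. Of the ankyrin repeat domain genes, 28 of 37 others were tested, with 10 higher and 7 lower (median log2 0.16). The scarce Ankrd35 rose by 2.57 and Ankrd50 by 0.86, and Ankrd55 fell by 3.01 and Ankrd37 by 1.08 (adjusted p from 8.1e-09 to 0.00557).

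**Figure D4:**
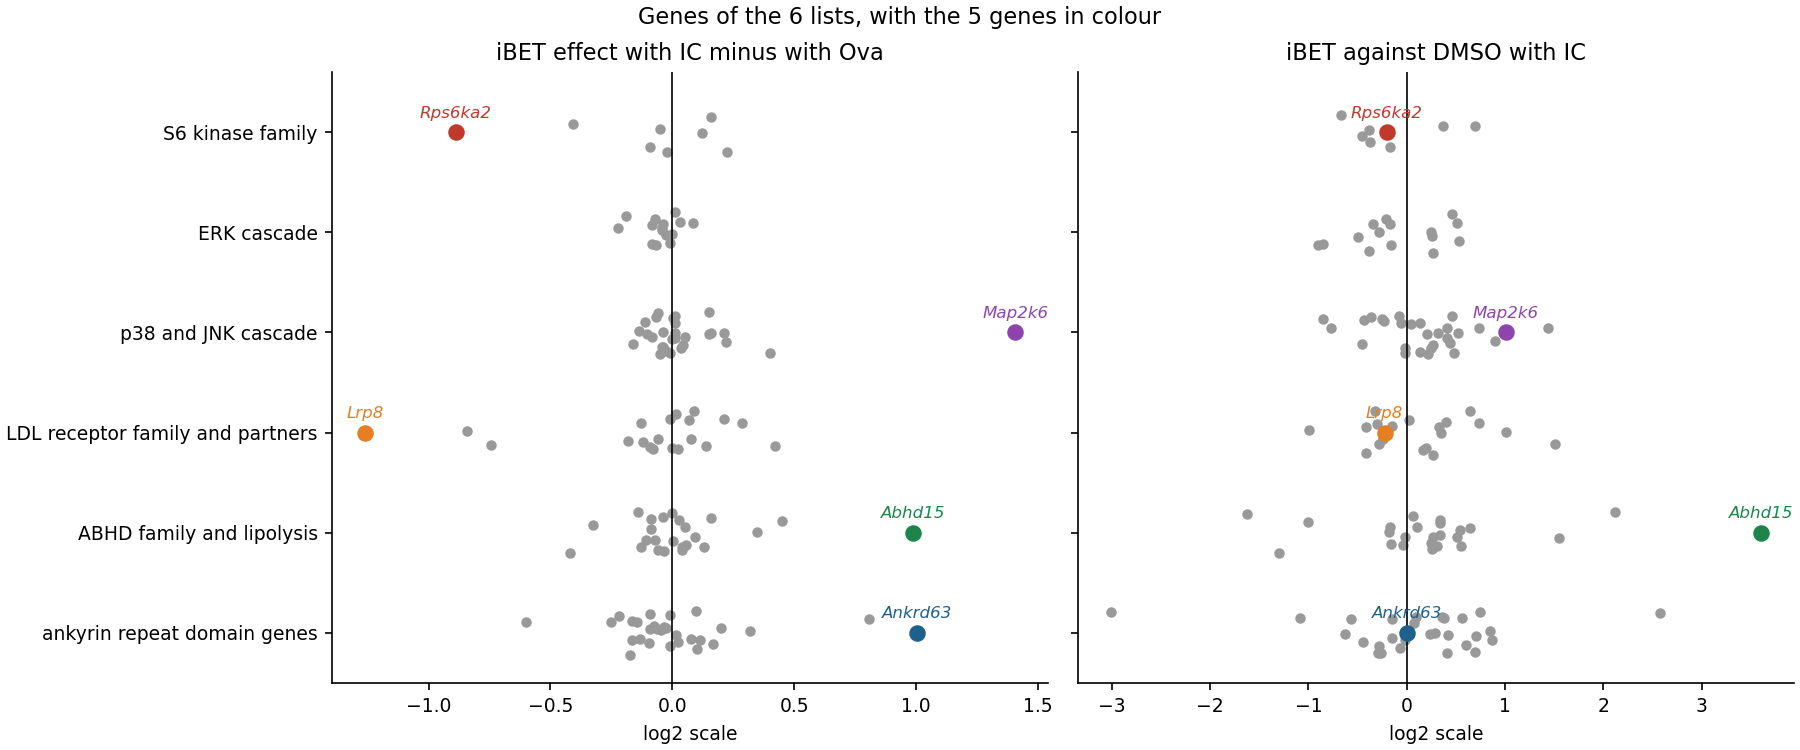
Log2 values of the tested genes of the 6 lists (1 grey point per gene, vertical scatter for display only) for the iBET effect with IC minus with Ova (left) and for iBET against DMSO with IC (right), with the 5 members in colour. On the left the members lie outside the range of the other genes of their lists, which their choice favours, and on the right Rps6ka2, Lrp8, Ankrd63 and Map2k6 lie among them while Abhd15, at 3.60, lies to the right of them.

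Of the nearest genes in the count table on either side of the members, none of those tested passed the interaction. Only 0.0401% of all tested genes did, so the absence of a call among so few genes says little. Plcb2, a phospholipase C gene 3554 bases from Ankrd63 on the same strand, fell with iBET by 1.15 after ovalbumin and by 0.84 after immune complex (adjusted p = 5.17e-10 and 3.48e-08), where Ankrd63 was 2.01-fold lower and level. Magoh, 2915 bases from Lrp8, was at 0.21 and 0.04 for the same effects (adjusted p = 0.0493 and 0.693). Abca5, 61406 bases from Map2k6, rose by 1.94 and 1.69 (adjusted p = 3.11e-09 and 1.76e-08). Git1, 7335 bases from Abhd15, did not pass (0.12 and 0.15, adjusted p = 0.422 and 0.313), and neither did Rnaset2b near Rps6ka2 (-0.02 and 0.05, adjusted p = 0.839 and 0.568). Nufip2, 147548 bases from Abhd15, rose after ovalbumin by 0.51 (adjusted p = 0.000538) and was at 0.26 after immune complex (adjusted p = 0.0529). Tcp10a, Dmrtb1, Pak6 and Kcnj16 had at most 7 counts in any library and were not tested.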

How the data were processed

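RNA-seq counts per gene were analysed for 20 libraries of BMDCs from 5 mice in 4 groups. Per the labels and methods, the authors demultiplexed with CASAVA, trimmed with Trim Galore, aligned reads to mm10 with HISAT2 and deposited raw counts from featureCounts. The annotation and strand setting for counting are not given in the sources used here. The authors also deposited a signal table, in which every count of a library is divided by 1 size factor.

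With edgeR 4.0.16 in R 4.3.3, low genes were removed by filterByExpr, libraries were scaled by TMM, and a quasi-likelihood model of the 4 groups gave p values, which the Benjamini-Hochberg method adjusted over 12465 genes (limit 0.05). Log2 CPM used a prior count of 2. Libraries of the same mouse deviated together in all 30 pairs (r from 0.307 to 0.675), and they come from the same animal, so the mouse was fitted as a block as an alternative. Libraries of 1 group differed by more than counting error (chi-square per degree of freedom at least 12.5). The p values of the main fit rest on this spread within groups. Without the block it mixes baseline differences between mice with the variation of an effect over mice, and does not measure the latter alone. The fits were tested on simulated data. Alternatives were DESeq2 1.42.0 with and without the block, its size factors, library size only, surrogate variables from sva 3.50.0 (3 variables), no filter beyond 1 count, limma 3.58.1 on log2(signal + 1), omission of each mouse, and mice A and B or C, D and E alone. Positions are from GENCODE M21 and promoters from RefSeq.

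The members and lists were chosen with earlier results of these data known. Named genes are the members, per list the 2 largest rises and falls with iBET after immune complex, the 3 genes most like each member, the nearest neighbours and the 5 genes next in the interaction.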

Additional observations from a re-analysis of the deposited data

Results flagged for a closer look

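Of 55 sets of 5 values (each member's CPM in a group, and each of its effects over the mice), 4 held a value set apart from the other mice by more than 0.71 of the range. Chance alone flags about 1 set in 20. Ankrd63 in iBET Ova was highest in mouse D, at 14.3 CPM against 10.4 for the next mouse. Abhd15 in iBET Ova was highest in mouse A, at 56.6 CPM against 46.6 for the next. Mouse A also had the lowest values for Rps6ka2, with a log2 difference of iBET against DMSO after immune complex of -0.47 (next -0.18) and an average over both stimuli of -0.061 (next 0.30). Without mouse A, the averaged iBET effect on Rps6ka2 was 0.32.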

How the results depend on the processing

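The averaged effects of the 5 members kept their direction under all 15 alternatives, and the averaged immune complex effects their calls as well. Of the averaged iBET effects, Rps6ka2 missed the limit with mice A and B only (log2 0.11, adjusted p = 0.437) and Map2k6 did so with DESeq2 (0.32, adjusted p = 0.0617), with DESeq2 and the replicate block (0.32, 0.056), with library size only (0.25, 0.0645), with surrogate variables (0.24, 0.0944), with mice A and B only (0.26, 0.398) and without mouse A, D or E (0.26 to 0.37 over the 5 omissions). With the replicate block in edgeR no call on a member changed. Of the simple effects and interactions of members under alternatives, 374 stayed within the spread between mice and 1 moved further, the immune complex effect on Lrp8 with DMSO for mice A and B (log2 1.47). The alternatives share libraries with the main fit, and leaving out 1 mouse can hardly move a mean by that spread. The count of 374 was thus largely fixed in advance and is not a sign of stability. The count of interaction calls, 5 in all mice, was 102 with the replicate block, 24 with DESeq2, 185 with DESeq2 and the block, 49 with surrogate variables, 0 with mice A and B, 13 with mice C, D and E, and 0 to 2 with 1 mouse left out. With the block and mouse A, B, C, D or E left out it was 55, 37, 15, 14 and 61, an alternative chosen after seeing the data. It was 4 with no filter, Map2k6 missing, and 6 at an adjusted p under 0.1. List genes called for immune complex with DMSO numbered 22 of 120, where 9.59% of all tested genes were higher and 10.7% lower. Under alternatives they numbered 45, 47, 40 and 8 with the block, DESeq2 and the block, surrogate variables and mice A and B, and 13 to 23 with 1 mouse left out. With iBET they numbered 16, where 5.19% of all tested genes were higher and 6.63% lower, and under the same alternatives 36, 34, 32 and 4, and 7 to 12. Over all genes, calls for immune complex with DMSO were 2531 and 4755 with the block, with iBET 1474 and 3601 (2343 with library size only), and for the average 3986 and 6009. The causes were not tested. Depth limits Map2k6 most, whose counts in DMSO IC were 11 to 17.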
